A study of Danio rerio with 15 samples.

Results

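The 6 protein-coding genes of the zebrafish mitochondrial genome that encode subunits of respiratory complexes III, IV and V were followed in skeletal muscle. They are mt-cyb (ENSDART00000093625) for complex III, mt-co1 (ENSDART00000093606), mt-co2 (ENSDART00000093609) and mt-co3 (ENSDART00000093613) for complex IV, and mt-atp6 (ENSDART00000093612) and mt-atp8 (ENSDART00000093611) for complex V. They were picked by their Ensembl transcript identifiers, out of 57775 transcripts listed in the deposited tables, and each identifier was kept if its listed length lay within 5% of the length known for that gene. All 6 passed, with lengths of 1141 bases for mt-cyb, 1551 for mt-co1, 691 for mt-co2, 786 for mt-co3, 684 for mt-atp6 and 165 for mt-atp8. The RefSeq mitochondrial gene was looked up by exactly that length, and in each case it was the same gene.

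RNA was sequenced from the muscle of 15 female zebrafish, 1 library per fish. The fish were wild type (scaf1+/+, n = 4 on standard diet and n = 3 on double diet) or homozygous for the scaf1Δ1 allele (scaf1-/-, n = 4 on each diet), and the scaf1+/+ fish descend from the same founder and AB mating as this single CRISPR line. For 6 weeks the standard diet was fed 3 times a day and the double diet 5 times a day, to fish that were 7 months old at the start by the study's methods. The paper describes the double diet as the double amount of food, spread over more feeds a day, so amount and number of feeds changed together. The labels name the dry food gemma-300 for all feeds, while the methods give 1 weekday feed of both diets as artemia and fewer feeds at weekends. The labels give 13 fish per 2 l tank and the methods give 10, and no label says which tank a fish came from. By the methods each tank as a whole received 1 diet, so differences between diets and between tanks cannot be told apart here. The methods do not say whether the genotypes shared tanks, so the same limit may hold between genotypes.

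Oxidative phosphorylation is built from proteins of both genomes. Cytochrome b, encoded by mt-cyb, is a subunit of complex III, which passes electrons to cytochrome c. Subunits 1, 2 and 3 of cytochrome c oxidase, encoded by mt-co1, mt-co2 and mt-co3, form the catalytic core of complex IV, where oxygen is reduced, and mt-atp6 and mt-atp8 encode membrane subunits of the ATP synthase, complex V. In vertebrates, mitochondrial mRNAs are cut from long polycistronic transcripts, and genes made from a shared precursor can differ in the level of the mature RNA. Scaf1 (also named Cox7a2l) links complexes III and IV into supercomplexes, and muscle is among the tissues richest in both. The comparisons ask whether loss of Scaf1, or the double diet, went with a different level of the mitochondrial mRNAs of these complexes.

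On the mitochondrial genome the genes follow in the order mt-co1, mt-co2, mt-atp8, mt-atp6 and mt-co3, and mt-cyb lies apart, beyond further complex I genes. The pair mt-atp8 and mt-atp6 overlap in vertebrates. The estimated counts used here gave mt-atp8 a count of 0 in all 15 libraries, as they did every listed transcript of its length or shorter.

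Library totals were 4045429 to 15844709 estimated counts. The library of scaf1+/+ standard diet fish C stood apart: it had the lowest total, the next being 11671548, and 15655 transcripts with a count against 27748 to 35800 in the other libraries. Values without it are given beside the group means and comparisons that contain it. The tables pair no transcript with a gene, so neither the muscle label nor the loss of scaf1 was checked here. The labels do not say whether each fish was handled separately after dissection, so p-values measure the spread between these 15 libraries.

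Levels are given as CPM, the estimated count of a gene over the total of its library, times 1000000. The lowest count of the 5 genes with counts was 20478, so counting error is small beside the differences between fish. In bulk tissue, fewer cells of a type and less RNA per cell cannot be told apart, nor can fewer mitochondria and less RNA per mitochondrion.

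Together the members made up 4.13 to 11.4% of all estimated counts in a library. By group this share was 4.13, 5.41, 6.45 and 10.3% in scaf1+/+ fish 6, 7, B and C on standard diet, and 5.75, 9.59, 8.45 and 7.04% in scaf1-/- fish 6, A, B and C on standard diet. On double diet it was 4.21, 9.24 and 8.40% in scaf1+/+ fish 2, 3 and 4, and 10.5, 11.4, 9.32 and 9.16% in scaf1-/- fish 2, 3, 6 and 7. On double diet, 3 of the 4 scaf1-/- fish therefore exceeded all 3 scaf1+/+ fish, and the lowest of the 4, fish 7, lay between scaf1+/+ fish 4 and 3. Of the 13 mitochondrial mRNAs the members supplied 79.5 to 87.4% of the counts, the rest being the 7 complex I subunits mt-nd1 to mt-nd6 and mt-nd4l.

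For complex III, mt-cyb stood at 6367, 7445, 9748 and 5062 CPM in scaf1+/+ standard diet fish 6, 7, B and C, the highest being fish B and the lowest fish C. In scaf1-/- standard diet fish 6, A, B and C it was 8281, 13727, 13625 and 9943 CPM, with fish 6 inside the scaf1+/+ range and the other 3 above it. The scaf1+/+ double diet fish 2, 3 and 4 had 6797, 16200.4 and 13329.5 CPM, and the scaf1-/- double diet fish 2, 3, 6 and 7 had 15885, 18194, 11609 and 14089 CPM. Group means were 7155 ± 1984 CPM (SD, n = 4), 11394 ± 2721 CPM (SD, n = 4), 12109 ± 4819 CPM (SD, n = 3) and 14944 ± 2787 CPM (SD, n = 4) in the same order, and without fish C the scaf1+/+ standard diet mean was 7853 ± 1727 CPM (SD, n = 3). The lowest group was the scaf1+/+ standard diet, and scaf1+/+ double diet fish 2 fell within its range, so every pair of groups overlapped except scaf1+/+ standard diet and scaf1-/- double diet, which differ in both genotype and diet and were not tested.

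For complex IV, mt-co1, the largest subunit, which binds the haem groups where oxygen is reduced, was the most abundant member by CPM in every library but that of scaf1+/+ standard diet fish C. It stood at 17369, 25109, 28178 and 28219 CPM in scaf1+/+ standard diet fish 6, 7, B and C and at 29747, 49622, 30573 and 26524 CPM in scaf1-/- standard diet fish 6, A, B and C. Fish A held the highest value of all 15, and fish C of scaf1-/- lay inside the scaf1+/+ range. On double diet, scaf1+/+ fish 2, 3 and 4 had 14853, 31337 and 31104 CPM and scaf1-/- fish 2, 3, 6 and 7 had 40648, 38711, 45997 and 39400.0 CPM. All 4 scaf1-/- double diet fish lay above all 3 scaf1+/+ double diet fish, while scaf1+/+ fish 2 held the lowest value of all 15. The means were 24719 ± 5112 CPM (SD, n = 4) in scaf1+/+ and 34116 ± 10483 CPM (SD, n = 4) in scaf1-/- fish on standard diet, and 25765 ± 9451 CPM (SD, n = 3) and 41189 ± 3304 CPM (SD, n = 4) on double diet. Without fish C the scaf1+/+ standard diet mean was 23552 ± 5570.0 CPM (SD, n = 3).

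The gene mt-co2 encodes the subunit that takes electrons from cytochrome c. It stood at 6319, 9049.9, 9915 and 42238 CPM in scaf1+/+ standard diet fish 6, 7, B and C, so that fish C, the shallow library, had the highest value of the series and was the only one in which mt-co2 exceeded mt-co1 in CPM. The scaf1-/- standard diet fish 6, A, B and C had 8349, 15598, 15517 and 11649 CPM. On double diet the scaf1+/+ fish 2, 3 and 4 had 7206, 15685 and 16169.6 CPM and the scaf1-/- fish 2, 3, 6 and 7 had 20049.8, 20088, 18912 and 18347 CPM. The 4 scaf1-/- double diet fish lay close together, at 19349 ± 862 CPM (SD, n = 4), a coefficient of variation of 4.46%, and above every other fish but scaf1+/+ standard diet C. The other groups stood at 16880.4 ± 16974 CPM (SD, n = 4) for scaf1+/+ standard diet, 12778 ± 3480.4 CPM (SD, n = 4) for scaf1-/- standard diet and 13020.3 ± 5041 CPM (SD, n = 3) for scaf1+/+ double diet. Without fish C the scaf1+/+ standard diet mean of mt-co2 was 8428 ± 1877 CPM (SD, n = 3), the lowest of the 4 groups.

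The third core subunit of complex IV, mt-co3, stood at 5855, 6988, 8952 and 15392 CPM in scaf1+/+ standard diet fish 6, 7, B and C and at 6803, 10916, 13574 and 10849 CPM in scaf1-/- standard diet fish 6, A, B and C. On double diet it was 6464, 15129 and 12865 CPM in scaf1+/+ fish 2, 3 and 4 and 16262, 17992, 10380.5 and 12811 CPM in scaf1-/- fish 2, 3, 6 and 7. The means were 9297 ± 4260.3 CPM (SD, n = 4) in scaf1+/+ and 10536 ± 2793 CPM (SD, n = 4) in scaf1-/- fish on standard diet, and 11486 ± 4494 CPM (SD, n = 3) and 14361 ± 3418 CPM (SD, n = 4) on double diet. Without fish C the scaf1+/+ standard diet mean was 7265 ± 1567 CPM (SD, n = 3). With it every pair of groups overlapped, and without it only the scaf1+/+ standard and scaf1-/- double diet fish, which differ in both genotype and diet, did not. The mt-co3 level was lowest in fish 6 on standard diet in both genotypes and highest of all in fish 3 of scaf1-/- double diet.

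For complex V, mt-atp6, whose product forms part of the proton channel of the ATP synthase, stood at 5409, 5507, 7742 and 12053 CPM in scaf1+/+ standard diet fish 6, 7, B and C and at 4359, 6048, 11243 and 11410.5 CPM in scaf1-/- standard diet fish 6, A, B and C. On double diet it was 6825, 14089.6 and 10523 CPM in scaf1+/+ fish 2, 3 and 4 and 11792, 19406, 6291 and 6926 CPM in scaf1-/- fish 2, 3, 6 and 7. In CPM the scaf1-/- double diet fish were spread most widely. Their fish 3 was the highest of all 15, while fish 6 and 7 lay below or just above the lowest scaf1+/+ double diet fish. On standard diet, scaf1-/- fish 6 was the lowest of all 15. The means were 7678 ± 3109 CPM (SD, n = 4) and 8265 ± 3602 CPM (SD, n = 4) in scaf1+/+ and scaf1-/- fish on standard diet and 10479 ± 3632 CPM (SD, n = 3) and 11104 ± 6055 CPM (SD, n = 4) on double diet, and all groups overlapped. Without fish C the scaf1+/+ standard diet mean was 6219 ± 1319.9 CPM (SD, n = 3).

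The other complex V gene, mt-atp8, was listed at 0 in all 15 libraries. No transcript of its length or shorter had a count in any library, out of 243 listed, and the shortest transcript with a count had 189 bases. Its effective length, the number of positions from which a fragment could start, was listed as 15.4 bases. These files therefore hold no measurement of mt-atp8, and 5 of the 6 members enter all comparisons that follow.

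**Figure D1:**
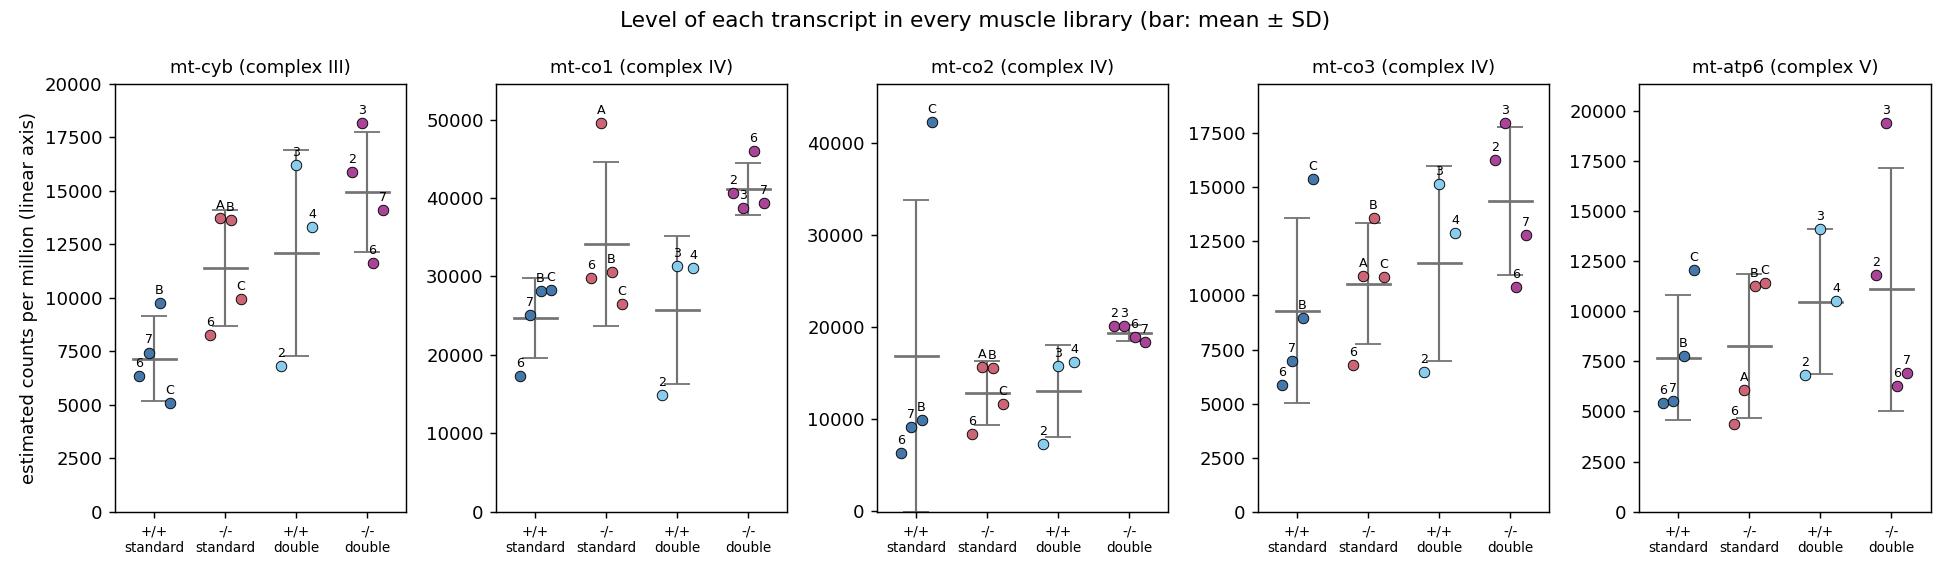
CPM in each library (linear vertical axes, 1 panel per gene) for the 4 groups of genotype and diet, 1 point per fish with the mark from its title, and the mean ± SD of each group as a bar. The 4 scaf1-/- double diet fish lie above the 3 scaf1+/+ double diet fish in mt-co1 and mt-co2, and scaf1+/+ standard diet fish C stands alone at the top of mt-co2.

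The 5 genes did not vary alike from fish to fish. Within groups, the SD of log2 CPM, pooled over the 4 groups, was 0.38 for mt-co1, 0.42 for mt-cyb, 0.51 for mt-co3, 0.64 for mt-atp6 and 0.73 for mt-co2. Without scaf1+/+ standard diet fish C these values were 0.39, 0.41, 0.44, 0.62 and 0.41, so mt-co2 had the widest spread with all libraries and mt-atp6 without that 1. Among the 92 transcripts of at least 1000 CPM on average, the median of the same measure was 0.63, or 0.43 without that library.

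To compare genes with each other, counts were divided by effective length and scaled to the same sum of 1000000 in every library (TPM). On this scale mt-co2 or mt-co1 was the highest member in every library and mt-cyb the lowest in 13 of 15. The member mt-co2 was highest in all 7 double diet libraries and in 3 of 8 standard diet libraries, where mt-co1 was highest in the other 5. This order was read off after the values were seen and was not tested. In the double diet scaf1-/- fish mt-co2 ranged only from 34276 to 34974 TPM. In scaf1+/+ standard diet fish C mt-co2 reached 55948 TPM and mt-cyb 3502 TPM, the highest and lowest of any member in any library.

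The TPM ratio of mt-co1 to mt-co2, neighbours on the genome, was 1.0, 1.01 and 1.03 in scaf1+/+ standard diet fish 6, 7 and B and 0.243 in fish C. In scaf1+/+ double diet fish 2, 3 and 4 it was 0.750, 0.727 and 0.700. Leaving aside fish C, the ratio was therefore lower in each scaf1+/+ double diet fish than in each scaf1+/+ standard diet fish, and with fish C the groups overlapped. In scaf1-/- fish it was 1.3, 1.16, 0.717 and 0.83 in standard diet fish 6, A, B and C and 0.738, 0.701, 0.885 and 0.781 in double diet fish 2, 3, 6 and 7, so that the 2 diets overlapped. The shift in scaf1+/+ fish was not particular to this pair. There mt-co1 to mt-co3 was 0.899 to 1.05 on double and 1.29 to 1.56 on standard diet, with fish C at 0.796. The ratio of mt-cyb to mt-co1 was 0.615 to 0.742 on double and 0.257 to 0.526 on standard diet, fish C included. Ratios have no background over all transcripts and were not tested.

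The TPM ratio of mt-atp6 to mt-co3, which are also neighbours, lay between 0.948 and 1.28 in all 7 scaf1+/+ fish of both diets. In scaf1-/- fish it was more scattered, at 0.776, 0.671, 1.0 and 1.27 in standard diet fish 6, A, B and C and at 0.878, 1.305, 0.734 and 0.654 in double diet fish 2, 3, 6 and 7. Of the 8 scaf1-/- fish, 5 lay below the scaf1+/+ range and 1 above it. These ratios were examined after the values were seen, and no test was made of their spread.

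The TPM ratio of mt-cyb to mt-co3, genes that lie apart, lay between 0.571 and 0.784 in 14 libraries and was 0.205 in scaf1+/+ standard diet fish C.

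**Figure D2:**
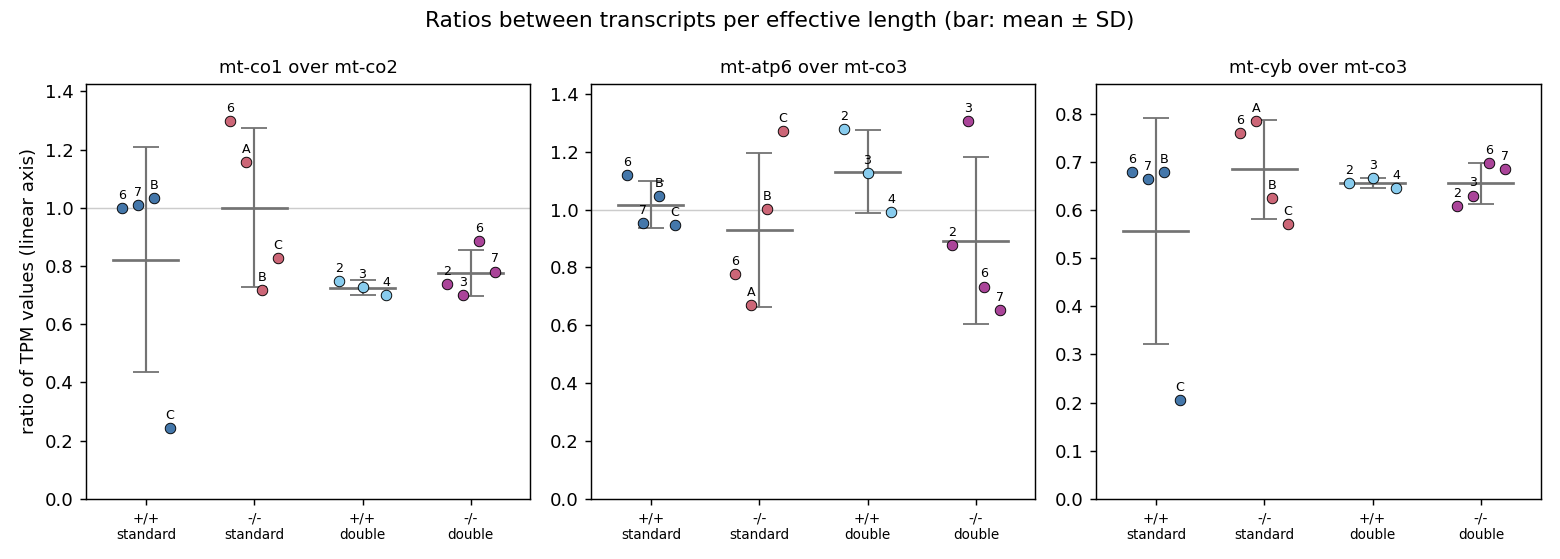
Ratios of TPM values (counts per effective length, linear axes from 0) between pairs of genes, 1 point per fish with its mark, and the mean ± SD of each group as a bar. In scaf1+/+ fish mt-co1 over mt-co2 was 0.700 to 0.750 on double diet and 1.0 to 1.03 on standard diet apart from fish C at 0.243, and mt-atp6 over mt-co3 spanned 0.948 to 1.28 in scaf1+/+ and 0.654 to 1.305 in scaf1-/- fish.

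As shares of the counts of all 13 mitochondrial mRNAs, a measure that does not depend on library scaling, mt-co1 took 23.6 to 44.4%, mt-co2 12 to 35.3%, mt-co3 9.66 to 13.2%, mt-cyb 4.23 to 14.2% and mt-atp6 5.41 to 13.8%. Fish C of scaf1+/+ standard diet set the lower end for mt-co1 and mt-cyb and the upper end for mt-co2. Without it, mt-co2 took at most 17.6% and mt-cyb at least 10.8%. The mt-co1 share was above 42% in 3 scaf1-/- fish, 6 and A on standard diet with 42.8 and 44.4% and 6 on double diet with 42.8%, and at most 37.7% in every other fish. The same 3 fish and scaf1-/- double diet fish 7 held the 4 lowest mt-atp6 shares, 6.27, 5.41, 5.86 and 6.61%. The 42% cut was chosen after the values were seen. The other scaf1-/- fish had mt-co1 shares of 27.6 to 37.6%, inside the scaf1+/+ range. Between genotypes the exact permutation p of the mt-co1 share was 0.429 on standard and 0.171 on double diet. A high mt-co1 share leaves less of the same total for mt-atp6.

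None of the 20 exact permutation tests of these shares (5 genes, 4 comparisons, two-sided, unadjusted) reached the 0.05 threshold, where the smallest p allowed was 0.0286. The closest were mt-co2, higher by 2.75 percentage points in double than in standard diet scaf1-/- fish (exact p = 0.0571, n = 4 and 4), and mt-atp6, higher by 2.14 points in double than in standard diet scaf1+/+ fish (exact p = 0.0571, n = 3 and 4). The share of mt-cyb did not overlap between the diets in scaf1+/+ fish, 12.8 to 14.2% on double and 4.23 to 12.5% on standard diet, but the exact permutation p was 0.143 (n = 3 and 4), with fish C setting most of the difference of 3.28 points. Without fish C, 3 genes did not overlap between the diets in scaf1+/+ fish, where only mt-cyb did not with it. The difference of double minus standard diet was then 1.32 points for mt-cyb, 1.55 points for mt-co3 (1.13 with fish C) and -7.28 points for mt-co1 (-4.17 with fish C), each at an exact permutation p of 0.1 (n = 3 and 3), the smallest possible. For mt-atp6 it was 2.25 points and for mt-co2 1.52 points, each with overlap and an exact permutation p of 0.200, where mt-co2 stood at -4.07 points with fish C. All shares of a library are parts of the same total, so the 3 genes without overlap are not independent results. This measure has no background over all transcripts. Among the complex I mRNAs, the shares of mt-nd6 and mt-nd4l also did not overlap between these diets without fish C, and the others did. On double and standard diet mt-nd6 took 1.32 to 1.41% and 0.987 to 1.13%, and mt-nd4l 0.165 to 0.264% and 0.294 to 0.326%. Between genotypes on standard diet, fish C moved the mt-co2 share difference most: it was -4.89 points with it and 0.70 points without it. The other share differences of that comparison were -0.78 to 3.96 points with fish C and -0.67 to 0.85 points without it, and all overlapped.

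**Figure D3:**
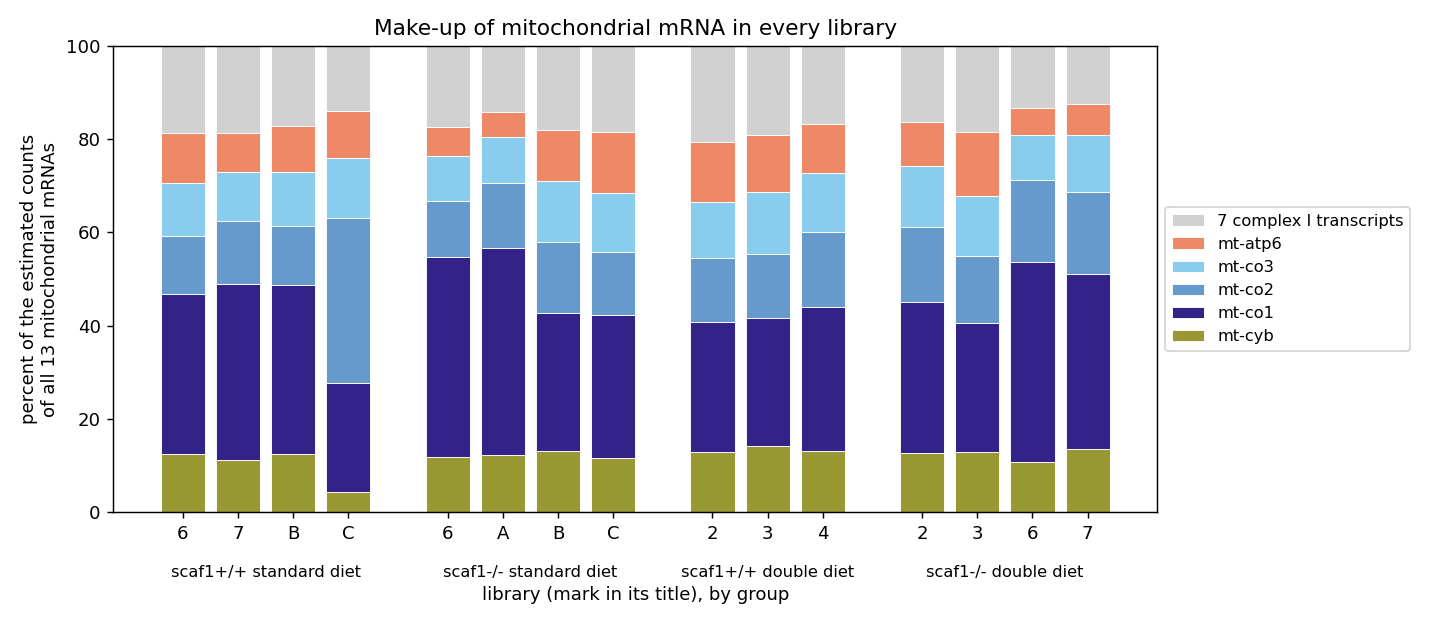
Each bar is 1 library and shows in percent how the estimated counts of its 13 mitochondrial mRNAs divide among mt-cyb, mt-co1, mt-co2, mt-co3, mt-atp6 and the 7 complex I transcripts together. Fish C of scaf1+/+ standard diet has 35.3% mt-co2 and 4.23% mt-cyb, and scaf1-/- fish 6 and A on standard diet and 6 on double diet have over 42% mt-co1, a cut chosen after the values were seen.

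Genotypes on the standard diet were compared first. By edgeR, none of the 5 members was called at an adjusted p under 0.05 with a log2 fold change over 1, against a background of 0.0% of the 26970 transcripts tested (5.9% had an unadjusted p under 0.05, and none of the members did). In scaf1-/- over scaf1+/+ fish the log2 fold change was 1.08 ± 0.59 (SE) for mt-cyb, with an edgeR adjusted p of 0.884, 0.59 ± 0.60 for mt-co1, -0.59 ± 0.87 for mt-co2, 0.30 ± 0.75 for mt-co3 and 0.37 ± 0.80 for mt-atp6. The median of the members was 0.37 and that of all transcripts tested was -0.09. DESeq2 called 0 members, against 0.108% of the 48364 transcripts for which it gave a p-value.

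These values rest on fish C. Without it the edgeR log2 fold change was 1.29 ± 0.61 for mt-cyb, 1.18 ± 0.54 for mt-co1, 1.38 ± 0.61 for mt-co2, 1.36 ± 0.66 for mt-co3 and 1.35 ± 0.77 for mt-atp6, so that mt-co2 turned from negative to positive. Of the 5, 2 then had an unadjusted p under 0.05, mt-co1 at 0.0484 and mt-co2 at 0.0406, where 8.79% of the 26862 transcripts tested did, and the lowest edgeR adjusted p was 0.536, so no call was made. On log2 CPM with all 8 fish, mt-cyb was 1.60-fold higher in scaf1-/- fish (exact permutation p = 0.0571, n = 4 and 4) and mt-co1 1.36-fold higher (exact permutation p = 0.114), while mt-co2 was 0.996-fold. Without scaf1+/+ fish C the 5 genes were 1.24-fold (mt-atp6) to 1.5-fold (mt-co2) higher, mt-cyb 1.44-fold and mt-co1 1.43-fold, with exact permutation p-values of 0.114 to 0.429 (n = 3 and 4). With or without that fish, no gene was free of overlap between the genotypes, where 0.701% of all transcripts were higher and 0.486% lower in scaf1-/- fish without overlap (1.25% higher without scaf1+/+ fish C). The median log2 CPM difference was 0.24 for the members, 0.40 for the 92 abundant transcripts and -0.18 for all 26970, and without scaf1+/+ fish C it was 0.52, 0.41 and -0.48. In mt-co1, scaf1-/- fish C was the only fish of its group inside the scaf1+/+ range. Leaving it out was bound to remove the overlap, so the exact permutation p of 0.0286 (n = 4 and 3) it gave is no test. Leaving out any other fish gave an exact permutation p of 0.114 to 0.314 for mt-co1.

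Fish of the 2 genotypes share the marks 6, B and C on this diet. No label says that a shared mark pairs fish. These fish were set side by side because of the data, and those sharing a mark on double diet were not, so the values are a description only. Between fish marked B all 5 genes were higher in the scaf1-/- fish, from 1.08-fold for mt-co1 to 1.56-fold for mt-co2. Between fish marked 6, 4 were higher, mt-co1 most at 1.71-fold, and mt-atp6 was lower at 0.81-fold. Between fish marked C only mt-cyb was higher, at 1.96-fold, and mt-co2 was 0.28-fold. With the mark as a replicate block the edgeR log2 fold change of mt-co2 was 0.11, and no member was called.

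On the double diet mt-co1 and mt-co2 lay higher in every scaf1-/- fish than in any scaf1+/+ fish. On log2 CPM the difference was 1.69-fold for mt-co1 (exact permutation p = 0.0286, n = 4 and 3) and 1.58-fold for mt-co2 (exact permutation p = 0.0286), the smallest p these group sizes allow. Both p-values are unadjusted, from 20 tests of 5 genes in 4 comparisons. The other members overlapped: mt-co3 was 1.3-fold higher (exact permutation p = 0.429), mt-cyb 1.3-fold higher (exact permutation p = 0.400) and mt-atp6 0.995-fold (exact permutation p = 1.0). Over all transcripts tested, 2.29% were higher in scaf1-/- fish without overlap and 9.91% were lower. The 2 genes come from the same libraries and are not independent of each other.

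The size of both differences rests in part on scaf1+/+ double diet fish 2, the lowest of the group in both genes. Without it mt-co1 was 1.32-fold and mt-co2 1.21-fold higher, still without overlap, and leaving out any other fish gave 1.62- to 1.91-fold for mt-co1 and 1.56- to 1.82-fold for mt-co2. With 1 fish fewer the test cannot go below an exact p of 0.0667 or 0.1, so it says nothing about stability there. Other library properties moved with the genotype on this diet: 29270 to 30839 transcripts had a count in scaf1-/- fish against 32212 to 33902 in scaf1+/+ fish, without overlap, and the 100 most abundant transcripts took 52.6 to 64.1% against 44.0 to 59.1% of the counts. Their part in the difference was not tested.

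By edgeR none of the 5 members was called in this comparison, against 0.0% of all transcripts, and none had an unadjusted p under 0.05, against 5.05% of all. DESeq2 called 0 members against 0.217% of all. The log2 fold change was 1.04 ± 0.67 (SE) for mt-co1 and 0.95 ± 0.96 for mt-co2, each with an edgeR adjusted p of 0.954, then 0.72 ± 0.82 for mt-co3, 0.69 ± 0.64 for mt-cyb and 0.49 ± 0.88 for mt-atp6. Fish C of scaf1+/+ standard diet enters the shared estimate of spread. Without it the SE was 0.54 for mt-co1 and 0.60 for mt-co2, with edgeR adjusted p-values of 0.662 and 0.719. On the CPM scale the median log2 difference was 0.38 for the members, 0.14 for the 92 abundant transcripts and -0.32 for all 26970. With TMM scaling the median edgeR log2 fold change was 0.72 for the members and -0.09 for all transcripts.

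Feeding scaf1+/+ fish the double diet went with no call among the members by edgeR, against 0.0% of all transcripts, or by DESeq2, against 0.0868%. None had an unadjusted edgeR p under 0.05, against 3.9% of all. With all 7 fish the edgeR log2 fold change of double over standard diet was 0.87 ± 0.63 (SE) for mt-cyb, -0.01 ± 0.65 for mt-co1, -0.89 ± 0.96 for mt-co2, 0.06 ± 0.80 for mt-co3 and 0.22 ± 0.86 for mt-atp6, each with an edgeR adjusted p of 1.0. Without fish C the same values were 1.08 ± 0.64, 0.58 ± 0.56, 1.09 ± 0.63, 1.11 ± 0.69 and 1.19 ± 0.80, with an edgeR adjusted p of 0.964 for each, and none had an unadjusted p under 0.05, against 4.57% of all. In these fish too, mt-co2 changed sign with that 1 library. On log2 CPM with all 7 fish mt-cyb was 1.63-fold higher on double diet (exact permutation p = 0.171, n = 3 and 4), the largest difference of the 5, and mt-co2 was 0.983-fold. Without fish C mt-atp6 was 1.64-fold, mt-co3 1.51-fold, mt-co2 1.48-fold, mt-cyb 1.47-fold and mt-co1 1.06-fold higher (exact permutation p of 0.2 to 0.8, n = 3 and 3). With or without fish C no member was free of overlap, where 2.1% of all transcripts were higher and 1.18% lower on double diet without overlap (3.41% higher without fish C).

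In scaf1-/- fish, mt-co2 was higher in every fish on double diet than in any on standard diet, by 1.56-fold on log2 CPM (exact permutation p = 0.0286, n = 4 and 4, unadjusted). The gap was narrow, from 15598 CPM in standard diet fish A to 18347 CPM in double diet fish 7. Over all transcripts, 1.72% were higher and 2.62% lower on double diet without overlap. Leaving out any of the 4 standard diet fish kept the exact permutation p at 0.0286, and leaving out any of the 4 double diet fish gave an exact permutation p of 0.0857, with 1.37- to 1.69-fold over all 8 settings. The number of transcripts with a count, 29270 to 30839 on double diet, lay inside the standard diet range of 27748 to 35800.

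The other 4 members were also higher on average on double diet but overlapped: mt-co3 1.37-fold (exact permutation p = 0.200), mt-cyb 1.32-fold (exact permutation p = 0.143), mt-atp6 1.31-fold (exact permutation p = 0.429) and mt-co1 1.24-fold (exact permutation p = 0.143). For mt-co1 the overlap came from standard diet fish A alone, and without it the difference was 1.42-fold (n = 3 and 4). Leaving out that fish was bound to remove the overlap, so the exact permutation p of 0.0286 it gave is no test. Leaving out any other fish gave an exact permutation p of 0.229 to 0.314. By edgeR none was called, against 0.0% of all transcripts, and by DESeq2 none against 0.285%. None had an unadjusted edgeR p under 0.05, against 5.69% of all. The edgeR log2 fold change was 0.65 ± 0.87 (SE) for mt-co2 and 0.34 to 0.48 for the others, each with an edgeR adjusted p of 1.0. Without scaf1+/+ standard diet fish C in the fit, the SE for mt-co2 was 0.54 and its edgeR adjusted p 0.830. On the CPM scale the median log2 difference was 0.40 for the members, 0.17 for the 92 abundant transcripts and -0.18 for all 26970.

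**Figure D4:**
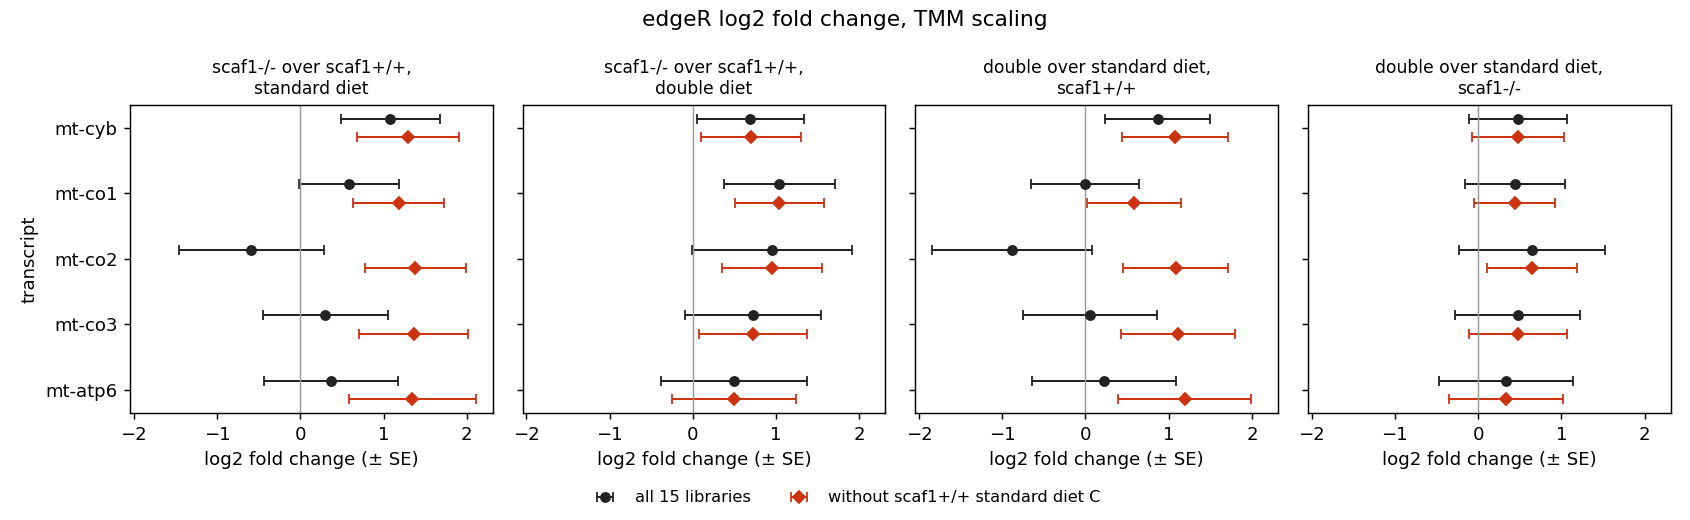
Log2 fold change by edgeR (horizontal axis, bars ± 1 SE) of the 5 genes in the 4 comparisons, fitted with all 15 libraries (black circles) and without scaf1+/+ standard diet fish C (red diamonds). Leaving out that library moves mt-co2 from -0.59 to 1.38 between genotypes on standard diet and from -0.89 to 1.09 between diets in scaf1+/+ fish. In the comparisons that do not contain it the fold changes hardly move, but the SE bars narrow, since all libraries share 1 estimate of spread.

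Whether diet acted differently in the 2 genotypes was tested as an interaction in the same edgeR model. No member was called, against 0.0% of all transcripts, and by DESeq2 none against 0.124%. None had an unadjusted edgeR p under 0.05, against 3.87% of all. The interaction on the log2 scale (diet difference in scaf1-/- minus that in scaf1+/+ fish) was 1.54 ± 1.3 (SE) for mt-co2, 0.45 ± 0.89 for mt-co1, 0.42 ± 1.1 for mt-co3, 0.12 ± 1.18 for mt-atp6 and -0.39 ± 0.86 for mt-cyb. Without fish C all 5 were below 0, from -0.85 ± 1.05 for mt-atp6 to -0.14 ± 0.74 for mt-co1, and none was called, against 0.00372% of all, or had an unadjusted p under 0.05, against 3.41% of all. The diet differences of the 2 genotypes were thus not shown to differ, and their order turned with 1 library.

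The 7 complex I subunits of the same genome, the rest of the mitochondrial protein-coding genes, gave the same count of calls, 0 of 7 by edgeR in each comparison, against 0.0% of all transcripts. Their log2 fold changes were above 0 for 5 of 7 between genotypes on standard diet, 7 of 7 between genotypes on double diet, 4 of 7 between diets in scaf1+/+ fish and 7 of 7 between diets in scaf1-/- fish. The medians were 0.75, 0.53, 0.60 and 0.25 in that order. In the members the same counts were 4, 5, 3 and 5 of 5, with medians of 0.37, 0.72, 0.055 and 0.475. Without fish C all 7 complex I genes and all 5 members were above 0 in the 4 comparisons, with complex I medians of 1.3, 0.53, 1.05 and 0.26 and member medians of 1.35, 0.72, 1.09 and 0.48. On log2 CPM, 79.3, 67.4, 76.1 and 65.2% of the 92 abundant transcripts, the members among them, were also higher in these comparisons. Without fish C the values were 90.2% between genotypes on standard diet and 79.3% between diets in scaf1+/+ fish. All genes share their library's scaling.

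The transcripts whose levels followed the members most closely were sought by the Pearson r of log2(CPM + 1) with the mean of the 5 measured members over the 15 libraries, as a description. The 5 closest of 26965 were ENSDART00000067586.8 (r = 0.926), ENSDART00000152734.3 (r = 0.917), ENSDART00000064738.6 (r = 0.916), ENSDART00000162362.2 (r = 0.912) and ENSDART00000154123.2 (r = 0.892), at mean levels of 25.9 to 247 CPM, and 81 transcripts had an r over 0.8. Without fish C, 166 had, and 3 of these 5 were still among the 5 closest. All points share their library's depth and make-up. Of the members, each of which is part of that mean, mt-co3 followed it at r = 0.984, mt-co2 at 0.844, mt-atp6 at 0.784, mt-co1 at 0.755 and mt-cyb at 0.736. Without fish C the values for mt-cyb and mt-co2 were 0.986 and 0.959, while mt-atp6 and mt-co1 stayed at 0.777 and 0.778. Among the complex I genes mt-nd2 came closest with all libraries (r = 0.846, rank 33), and mt-nd6 without fish C (r = 0.921, rank 4).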

How the data were processed

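RNA of 15 muscle libraries was sequenced and, by the study's methods, the authors ran kallisto 0.45.0 on the cDNA of Ensembl release 94 (build 11). The submitters' notes also list FastQC 0.11.8 and sleuth. Each deposited file gives, for every transcript, an estimated count, a length and an effective length. The strand setting was not given in the sources used here. Counts were rounded, kept by filterByExpr (minimum count 10), scaled by TMM and tested with edgeR 4.0.16 in R 4.3.3 (robust quasi-likelihood, 1 coefficient per group, Benjamini-Hochberg over 26970 transcripts). The common biological coefficient of variation was 0.847. Alternatives used DESeq2 1.42.0, which the methods name, and limma 3.58.1. CPM and TPM were derived from these files. Exact permutation tests were two-sided. A count of 0 allows up to 3 counts, 0.189 to 0.742 CPM by library, for counting error only. The edgeR fit and the permutation test were tested on simulated data.

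The members, lists and tests were chosen with earlier results of these data known. The naming rule took all 6 members and the 5 transcripts of highest correlation with them. Nuclear genes of complexes III to V, cell type markers and scaf1 were not used here, since no table pairs transcripts with genes. Each mitochondrial transcript was matched to the RefSeq gene of equal length. The names of the complex I transcripts and the order on the genome were read from that match. Where both genotypes carry the same mark in their titles, pairing was checked: deviations from the group means correlated at r = 0.43, 0.12 and 0.39 for marks 6, B and C on standard diet and at -0.1 and -0.17 for marks 2 and 3 on double diet. For marks shared across diets, the scaf1-/- double diet fish gave r = 0.38 and 0.14 for mark 6 with scaf1-/- and scaf1+/+ standard diet fish and -0.23 for mark 7. Fish were set side by side only for the marks shared between genotypes on standard diet, from the data and not from any label. Fish of different marks were not correlated, so these values cannot show whether a mark pairs fish. The main tests were unpaired, and the replicate block was fitted with every shared mark.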

Additional observations from a re-analysis of the deposited data

Results flagged for a closer look

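In 30 sets of values (5 genes as level and as share of mitochondrial mRNA in the 3 groups of 4 fish), 3 held a fish far from the rest of its group by Dixon's criterion, which chance meets in about 1 in 20 groups. All 3 come from the scaf1+/+ standard diet library C, the library with the lowest total. Its mt-co2 level was 42238 CPM, where the other 3 fish had 6319 to 9915 CPM. Its mt-co2 share of mitochondrial mRNA was 35.3%, where the others had 12.4 to 13.6%. Its mt-cyb share was 4.23%, where the others had 11.2 to 12.5%.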

How the results depend on the processing

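The count of members called by edgeR was 0 in all 5 comparisons and stayed 0 under the 26 alternative settings, DESeq2 and limma included, which gave 100 counts over the comparisons. These settings called few transcripts of any kind in a comparison: at most 4 of 26862 by edgeR, 1 of 26970 by limma and 138 of 48364 by DESeq2. A count of 0 among 5 members is near those shares and is no result about the members. Scaling moved the median log2 fold change of all transcripts from about -0.09 to -0.10 with TMM to -0.39, -0.53, -0.34 and -0.45 with library totals alone (genotypes on standard and double diet, diets in scaf1+/+ and scaf1-/- fish). Of 500 log2 fold changes of the members under these settings, 48 changed sign, none of them called, and the cause was not tested. Between genotypes on standard diet, mt-co2 became 0.11 with the replicate block and 0.037 with limma at both pseudocounts. Between genotypes on double diet, mt-atp6 became -0.12 with limma at both pseudocounts. Between diets in scaf1+/+ fish, mt-co3 became -0.068 with median-ratio factors and with DESeq2 and -0.055 with shrinkage, mt-co1 became 0.06 with library totals, 0.083 with totals without mitochondrial mRNA and 0.034 with no filter, and the replicate block gave 0.31 for mt-co1, 0.51 for mt-co2 and -0.005 for mt-atp6. In the interaction, mt-atp6 became -0.023 with library totals and -0.24 with limma, mt-co3 -0.019 with limma, and mt-cyb 0.41 with the replicate block. The share of mt-cyb between diets in scaf1-/- fish became -0.005 points with the members alone as denominator. The replicate block, which held every mark shared between groups on either diet, changed no call but moved the median of the members from 0.72 to 1.45 between genotypes on double diet, from 0.475 to 1.28 between diets in scaf1-/- fish, from 0.055 to 0.31 between diets in scaf1+/+ fish and from 0.42 to 0.97 in the interaction.

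Leaving out 1 library at a time gave these ranges of log2 fold change where a sign turned. Between genotypes on standard diet they were -0.98 to 1.38 for mt-co2, -0.039 to 1.35 for mt-atp6 and -0.05 to 1.36 for mt-co3. Between diets in scaf1+/+ fish they were -0.30 to 0.58 for mt-co1, -1.22 to 1.09 for mt-co2, -0.22 to 1.19 for mt-atp6 and -0.34 to 1.11 for mt-co3, and in scaf1-/- fish -0.017 to 0.75 for mt-atp6. In the interaction they were -0.14 to 0.78 for mt-co1, -0.44 to 1.90 for mt-co2, -0.85 to 0.65 for mt-atp6, -0.64 to 0.88 for mt-co3 and -0.80 to 0.06 for mt-cyb. The differences of log2 CPM between genotypes on standard diet ranged from -0.33 to 0.58 for mt-co2 and from -0.12 to 0.34 for mt-atp6. The share differences there ranged from -6.91 to 0.70 points for mt-co2, -2.21 to 0.40 for mt-atp6 and -0.89 to 0.24 for mt-co3, and between diets in scaf1-/- fish from -4.30 to 0.76 for mt-co1, -1.65 to 1.41 for mt-atp6 and -0.066 to 0.82 for mt-cyb. The number of genes at an exact p under 0.05 ranged from 0 to 1 for levels between genotypes on standard diet, 0 to 2 for levels between diets in scaf1-/- fish and 0 to 1 for shares between diets in scaf1-/- fish. The upper ends for levels arose when the fish that alone made the mt-co1 overlap was left out. The upper end for shares arose when double diet fish 3, which alone made the mt-co2 share overlap, was left out. Leaving out such a fish was bound to remove the overlap, so these upper ends are no test. Where leaving out 1 fish allows no exact p under 0.05, no count is given for that setting.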
